A study of Mus musculus with 10 samples.

Results

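The genes described here carry dietary lipid through the absorptive cell of the small intestine. They take up fatty acids and cholesterol, rebuild them into triglyceride and cholesteryl ester, and load these onto apolipoprotein B. The list holds 35 genes. Probes were chosen by the gene name in the array files, with the older alias Adfp accepted for Plin2, and 33 of the 35 genes were found this way, on 51 probes. The other 2, Lipa and Lpcat3, stand in the files as Lip1 and Mboat5, were identified through their RefSeq accessions and are reported apart. All 33 genes passed the filter on dim probes, so that they are 33 of the 19055 genes tested. The probe standing for each was well above background on all 10 arrays.

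RNA came from the ileum (distal small intestine) of C57BL/6 mice 6 to 8 weeks old. Total RNA of each sample was hybridised to a one-colour Agilent array, with 2 arrays in each of 5 groups. Doxycycline was given to 4 groups (DOX, which turns on TetON transgenes through the regulator rtTA), at 2 mg/ml in drinking water with 1% sucrose for 2 days. These were TetON-Sox2 mice (Sox2 +DOX), mice with both the Sox2 and the Oct4 transgene (Sox2xOct4 +DOX), TetON-Oct4 mice (Oct4 +DOX) and rtTA mice without a Sox2 transgene (rtTA +DOX). The fifth group, TetON-Sox2 mice left untreated (Sox2 -DOX), has no sucrose recorded. Sox2 and Oct4 (encoded by Pou5f1) belong among the transcription factors of pluripotent embryonic cells. Which promoter drives rtTA is not stated in the sources used here, and nothing in the labels says that the replicates of a group are separate animals, so p-values measure the spread between these samples.

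In an enterocyte, fatty acids and monoacylglycerol enter at the brush border, are bound by small cytosolic proteins and are activated to acyl-CoA. At the endoplasmic reticulum they are esterified to triglyceride, and the microsomal transfer protein places triglyceride on apolipoprotein B as it is made. The resulting chylomicron leaves in coated vesicles for the lymph. Most of this traffic runs in the proximal intestine, and the ileum carries the same machinery at its villus tips.

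Some of the sequences upstream of these genes are shown because the neighbours Abcg5 and Abcg8 were both lowest with induced Sox2, and because Fabp1, Npc1l1 and Cd36 were called in a comparison within slides and hold matches to searched motifs. Apob, Cideb, Creb3l3 and, in another window, Lpin2 were also called within slides with a match and are not shown. Those shown are RefSeq sequences of build GRCm38.p6, 5′ to 3′, from bases before a listed start site. Capitals mark matches on either strand to the motif of the Cdx factors (TTTATNG), the motif of the Gata factors (AGATAA), the motif of the Hnf1 factors (GTTAATNAT) or the motif of the Sox factors (ACAATGG). The first run is the 109 bases between the start sites of Abcg5, read leftward, and Abcg8, read rightward, at chr17:84683012-84683120 on the plus strand, and a longer annotated span of Abcg8 covers it. The others are the 250 bases before Fabp1 (chr6:71199629-71199878, plus strand), Npc1l1 (chr11:6230246-6230495, minus strand) and Cd36 (chr5:17835897-17836146, minus strand).
Abcg5 to Abcg8: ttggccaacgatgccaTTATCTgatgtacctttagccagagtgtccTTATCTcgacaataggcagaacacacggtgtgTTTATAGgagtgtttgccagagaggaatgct
Fabp1: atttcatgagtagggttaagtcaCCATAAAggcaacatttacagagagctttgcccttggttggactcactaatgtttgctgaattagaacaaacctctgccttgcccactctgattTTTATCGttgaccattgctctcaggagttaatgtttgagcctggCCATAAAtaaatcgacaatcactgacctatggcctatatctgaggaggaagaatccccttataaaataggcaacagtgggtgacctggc
Npc1l1: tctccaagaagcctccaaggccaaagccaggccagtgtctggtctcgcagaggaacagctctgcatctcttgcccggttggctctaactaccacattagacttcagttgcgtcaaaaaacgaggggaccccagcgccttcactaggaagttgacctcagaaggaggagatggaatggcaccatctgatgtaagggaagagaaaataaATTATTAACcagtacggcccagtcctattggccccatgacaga
Cd36: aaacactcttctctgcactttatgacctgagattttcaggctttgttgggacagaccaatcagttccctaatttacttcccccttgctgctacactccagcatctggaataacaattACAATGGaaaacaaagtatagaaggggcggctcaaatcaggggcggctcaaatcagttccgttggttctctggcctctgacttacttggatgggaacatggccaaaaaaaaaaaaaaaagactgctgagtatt
Over the first RefSeq window of each gene, from 250 bases before to 50 after a start site, TTTATNG stood in 8 of the 28 listed genes with a window (Abca1, Abcg5, Abcg8, Apob, Apoc2, Cideb, Fabp1 and Fabp2), against 11.3% of 27025 windows of all genes. AGATAA stood in 3 (Abcg5, Abcg8 and Creb3l3), against 11.4%. The windows of Abcg5 and Abcg8 overlap and share their matches. GTTAATNAT stood in 1 (Npc1l1), against 0.836%, and another window of Lpin2, outside this count, held it too. ACAATGG stood in 1 (Cd36), against 3.71%. No listed gene's window held CAAAGTCCA (Hnf4; 0.477% of all windows), ATGCAAAT (octamer; 1.75%) or TGACGTCA (cyclic AMP element; 1.88%). These are matches of letters and do not show a factor's binding. The 7 listed genes without a window were Apoc3, Clps, Dgat1, Dgat2, Mogat2, Scarb1 and Soat2.

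Values below are log2 signals relative to the array's 75th percentile of signal, so that 0 is that percentile, and no probe's level is set against another's. A gene is said to have risen or fallen where limma's adjusted p was under 0.05 over all genes tested, and errors of changes are standard errors. The Sox2 +DOX and Sox2 -DOX arrays lay on slide 1, those of Sox2xOct4 +DOX and rtTA +DOX on slide 2 and those of Oct4 +DOX on slide 3. The Sox2 response (Sox2 +DOX over Sox2 -DOX) and the Sox2xOct4 response (Sox2xOct4 +DOX over rtTA +DOX) were thus measured within slides and share no array. For any other comparison, slide and group cannot be told apart, and all comparisons over rtTA +DOX share its 2 arrays. In the Sox2 response, Sox2 induction cannot be told apart from DOX itself or from the sucrose recorded only with it. Pou5f1 was well above background on all 4 arrays with the Oct4 transgene and on no other array. The Sox2 probe was not well above background on any array, and its place relative to the transgene's transcript is unknown here, so it does not check the labels. The 6 ileum markers had a summed signal, in units of the array's 75th percentile, of 72.1 to 155 in Sox2 +DOX, 117 to 152 in Sox2xOct4 +DOX, 342 to 393 in Oct4 +DOX, 277 to 399 in rtTA +DOX and 415 to 486 in Sox2 -DOX. That of the 7 tested markers of the proximal small intestine was 2.89 to 4.43 in Sox2 +DOX, 5.94 to 11.4 in Sox2xOct4 +DOX, 4.05 to 19.2 in Oct4 +DOX, 15.7 to 59.1 in rtTA +DOX and 5.18 to 7.55 in Sox2 -DOX. Of these, 1 rose in Sox2 +DOX over Sox2 -DOX (Dhrs9, 14.3%, against 3.03% of all genes). In Sox2xOct4 +DOX over rtTA +DOX 0 were called (6.34% of all genes), with 1 lower and 1 higher at an unadjusted p below 0.05. In rtTA +DOX over Sox2 -DOX 0 were called (0.0% of all genes), with 2 higher at an unadjusted p below 0.05. Among these 7 markers Lct, the lactase gene, had levels of 3.21 and 5.79 in rtTA +DOX and -3.53 and -3.16 in Sox2 -DOX. The part of the sampled stretch of intestine in the results was not tested.

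Much of the lipid absorption machinery was lower in ileum with induced Sox2, both alone and together with Oct4. In Sox2 +DOX over Sox2 -DOX, 9 of 33 genes fell (27.3%, against 4.8% of all genes called lower) and 0 rose (3.03% of all genes called higher; 2 of the 33 were higher at an unadjusted p below 0.05). The 9 were Mttp, Apoc3, Fabp1, Slc27a4, Mogat2, Lpin2, Npc1l1, Soat2 and Creb3l3. In Sox2xOct4 +DOX over rtTA +DOX, 9 fell (27.3%, against 3.15% of all genes) and 1, Cd36, rose (3.03%, against 3.19%). The 9 were Mttp, Apob, Cideb, Slc27a4, Acsl5, Mogat2, Dgat1, Dgat2 and Soat2. Mttp, Slc27a4, Mogat2 and Soat2 fell in both, and 24 of 33 genes had a change below 0 in both, against 35.4% of all genes.

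The median change of the 33 genes was -1.38 in Sox2 +DOX over Sox2 -DOX, where the median of all genes was -0.10, and -1.40 in Sox2xOct4 +DOX over rtTA +DOX, where it was 0.07. On both Sox2 +DOX arrays 27 of 33 genes lay below both Sox2 -DOX arrays (81.8%, against 36.6% of all genes). On both Sox2xOct4 +DOX arrays 21 lay below both rtTA +DOX arrays (63.6%, against 24.1%). Across the 33 genes the changes in the pair of comparisons had r = 0.66, and r = 0.77 over the 32 genes other than Cd36, against r = 0.61 over all genes. Genes are not independent replicates and this is a description.

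**Figure D1:**
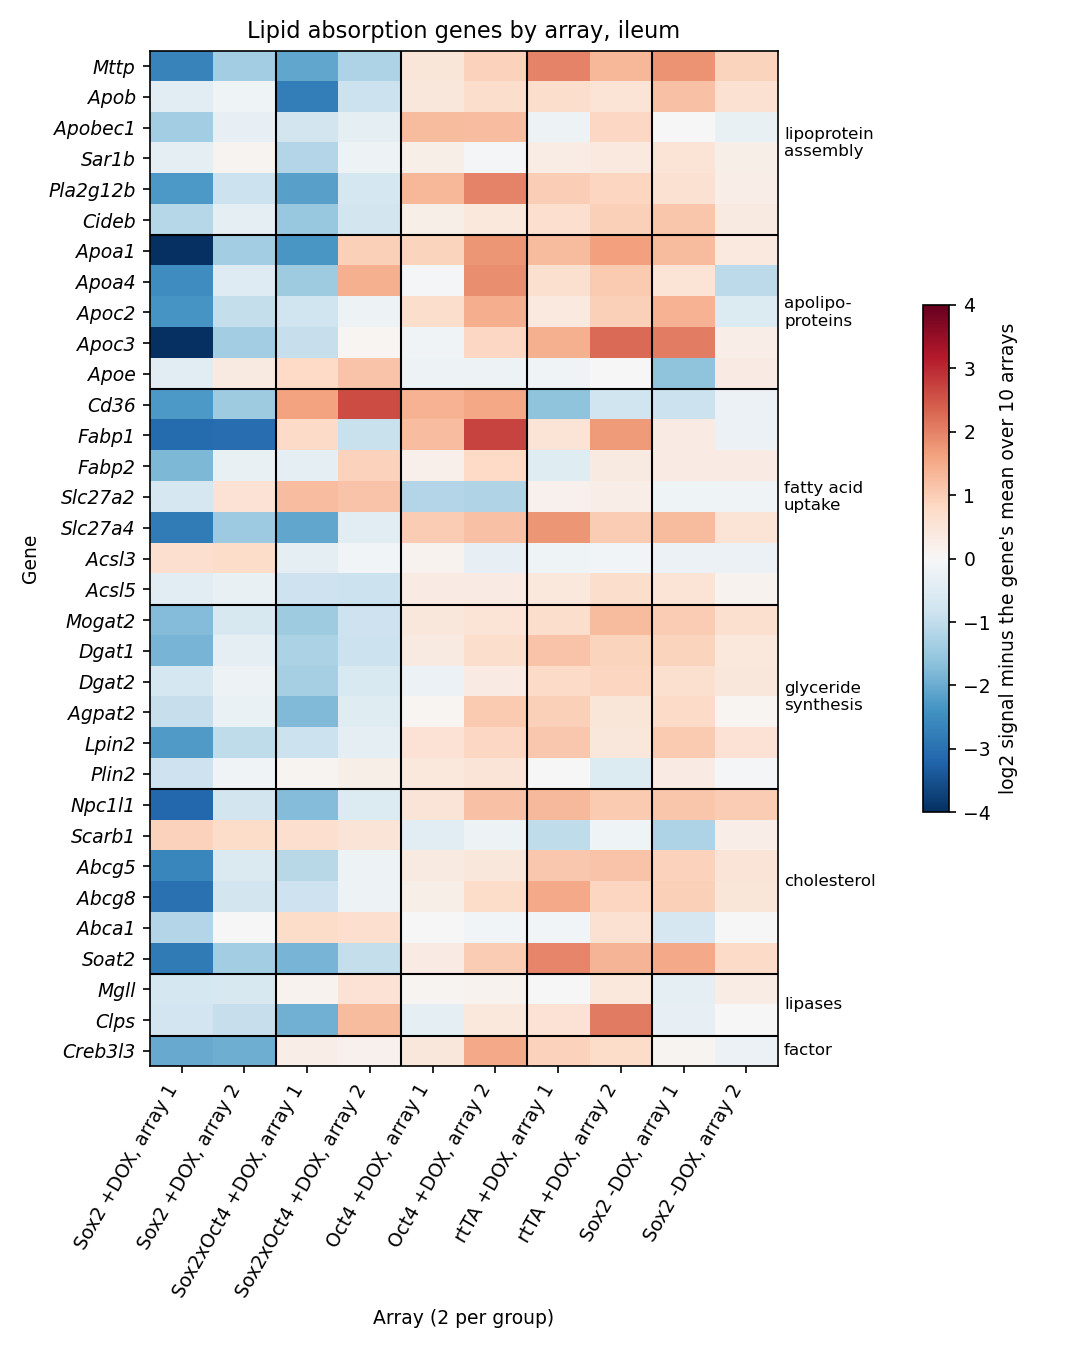
Log2 signal of the 33 genes on each array, as the difference from the gene's mean over 10 arrays (colour, ending at 4 in either direction), with genes in rows by role and arrays in columns by group. Most rows are blue on both Sox2 +DOX arrays and paler blue on the Sox2xOct4 +DOX arrays, and Cd36 is red on all 4 Oct4-transgene arrays.

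With Oct4 alone 1 gene was called. In Oct4 +DOX over rtTA +DOX this was Cd36, which rose (3.03%, against 0.724% of all genes called higher), and 0 fell (0.283% of all genes called lower; 1 of the 33 was lower at an unadjusted p under 0.05). The median change was -0.16, and 14 genes lay lower on both Oct4 +DOX arrays than on both rtTA +DOX arrays (42.4%, against 23.5%). In Sox2 +DOX over rtTA +DOX, which crosses slides, 13 genes fell (39.4%, against 5.14%) and 0 rose (3.23% of all genes called higher; 2 at an unadjusted p under 0.05), with a median of -2.13. Between the controls, rtTA +DOX over Sox2 -DOX, no gene was called among the 33 (0.0% of all genes). With unadjusted p below 0.05 there was 1 higher and there were 0 lower, and the median was 0.32. Of the 33, 9 were higher on both rtTA +DOX arrays (27.3%, against 20.6% of all genes). On both, 0 of the 33 were lower, against 4318 of all 19055 genes.

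**Figure D2:**
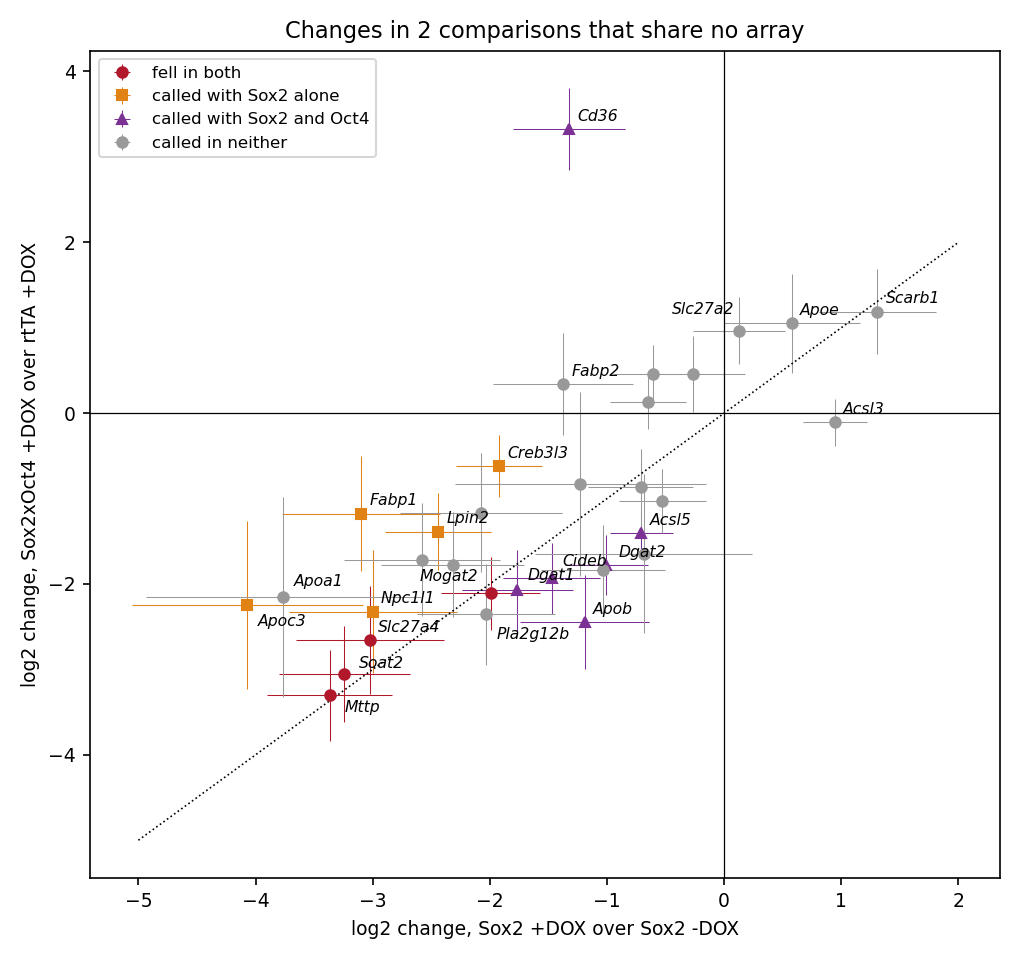
Log2 change of each of the 33 genes in Sox2 +DOX over Sox2 -DOX (horizontal axis) against Sox2xOct4 +DOX over rtTA +DOX (vertical axis), with standard errors as bars and equal changes on the dotted line. Mttp, Slc27a4, Mogat2 and Soat2 (red) fell in both, orange squares and purple triangles mark genes called in 1 of the comparisons, and Cd36 lies alone above the others.

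The replicates of the induced groups were uneven. Sox2 +DOX replicate 1 was lower than replicate 2 for 31 of 33 genes, by a median of 1.1, while 51.9% of all genes were lower there. Sox2xOct4 +DOX replicate 1 was lower than replicate 2 for 27 of 33, while 56.3% of all genes were lower there. With Oct4 alone, replicate 1 was lower for 28 of 33, against 52.2% of all genes. For the controls this held for 21 of 33 in rtTA +DOX (58.8% of all genes) and 9 of 33 in Sox2 -DOX (53.1%). Enterocyte markers moved the same way. All 12 were lower in Sox2 +DOX replicate 1 than in replicate 2, 10 of 12 in Sox2xOct4 +DOX replicate 1 and 11 of 12 in Oct4 +DOX replicate 1. For the controls this held for 8 of 12 in rtTA +DOX and 4 of 12 in Sox2 -DOX. As the median difference from each gene's mean over 10 arrays, the 33 genes stood at -1.81 and -0.56 in Sox2 +DOX, at -0.91 and -0.20 in Sox2xOct4 +DOX, at 0.33 and 0.73 in Oct4 +DOX, at 0.67 and 0.85 in rtTA +DOX, and at 0.61 and 0.28 in Sox2 -DOX. The 12 enterocyte markers stood at -2.26 and -0.77, at -0.97 and -0.13, at 0.28 and 0.74, at 0.70 and 0.92, and at 0.79 and 0.56 on the same arrays.

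**Figure D3:**
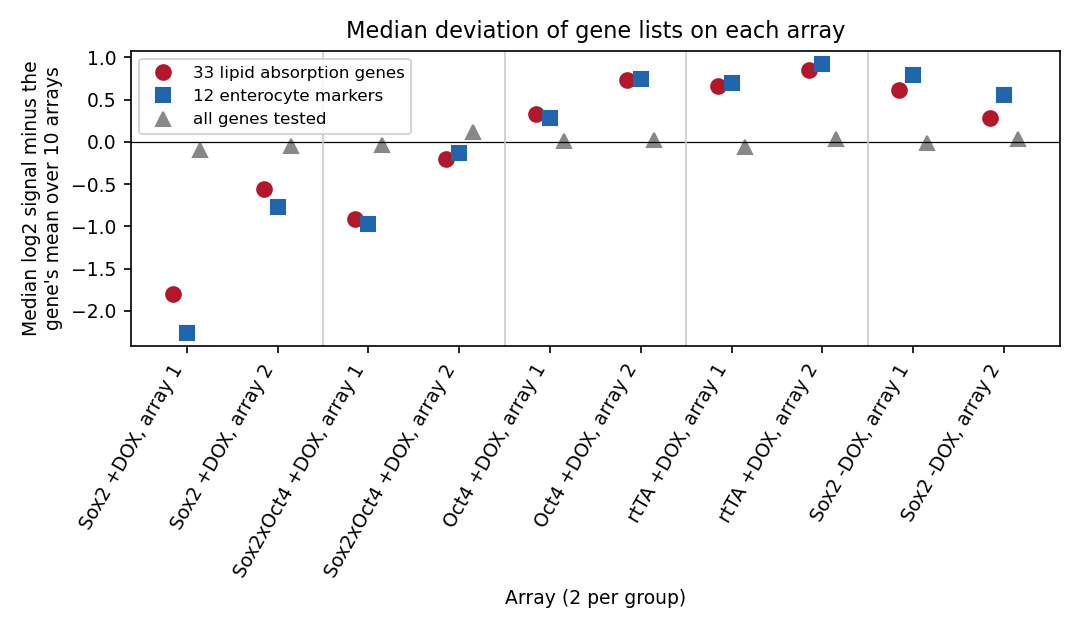
Median over genes of the log2 signal minus the gene's mean over 10 arrays (vertical axis), for the 33 lipid absorption genes, 12 enterocyte markers and all genes tested, on each array (horizontal axis). The lipid absorption genes and the enterocyte markers are both lowest on Sox2 +DOX replicate 1, at -1.81 and -2.26, and all genes stay near 0.

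Of the 12 enterocyte markers, all tested, 4 fell in Sox2 +DOX over Sox2 -DOX (33.3%, against 4.8% of all genes, median -1.81). In Sox2xOct4 +DOX over rtTA +DOX 2 fell (16.7%, against 3.15%, median -1.32). In Oct4 +DOX over rtTA +DOX 0 were called (1.01% of all genes, median of the markers 0.05). Their summed signal, in units of the array's 75th percentile, was 393 to 591 in Sox2 +DOX against 1046 to 1203 in Sox2 -DOX, and 363 to 676 in Sox2xOct4 +DOX against 804 to 1172 in rtTA +DOX. The markers Vil1 and Epcam were not called. Vil1, a microvillus protein, had changes of -0.98 ± 0.34 (adjusted p = 0.12) and -0.44 ± 0.34 (adjusted p = 0.48) in the Sox2 and the Sox2xOct4 response, and Epcam, an adhesion molecule of all intestinal epithelium, -1.06 ± 0.29 (adjusted p = 0.059) and -0.89 ± 0.29 (adjusted p = 0.11). The part of these markers in the results was not tested. In bulk tissue, fewer enterocytes and less RNA per enterocyte cannot be told apart.

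The counts depend on which arrays are in the fit, as do those over all genes. For Sox2 +DOX over Sox2 -DOX, 0 of 33 genes were called when Sox2 +DOX replicate 1 was left out, 13 when its replicate 2 was, 0 when Sox2 -DOX replicate 1 was and 1 when its replicate 2 was. For Sox2xOct4 +DOX over rtTA +DOX the count was 1 when Sox2xOct4 +DOX replicate 1 was left out, 0 and 1 when rtTA +DOX replicate 1 or 2 was, and 6 when either Sox2 -DOX array was. For Sox2 +DOX over rtTA +DOX it was 1 when Sox2 +DOX replicate 1 was left out, 1 and 3 when rtTA +DOX replicate 1 or 2 was, and 8 when either Sox2 -DOX array was. Leaving out an array of a compared group leaves 1 array there and fewer degrees of freedom. No called change turned its sign when any of the 10 arrays was left out.

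Among the genes of lipoprotein assembly, Mttp fell both with Sox2 alone and with Sox2 and Oct4. Mttp encodes the large subunit of the microsomal triglyceride transfer protein, which loads triglyceride onto apolipoprotein B (probe at chr3:138032371-138032430, build NCBI36/mm8, minus strand). Its level was -0.66 and 0.61 in Sox2 +DOX, -0.07 and 0.78 in Sox2xOct4 +DOX, 2.50 and 2.93 in Oct4 +DOX, 3.99 and 3.34 in rtTA +DOX, and 3.80 and 2.89 in Sox2 -DOX. The 4 arrays with induced Sox2 lay below the other 6 without overlap, and Oct4 +DOX lay below rtTA +DOX. The change was -3.37 ± 0.53 in Sox2 +DOX over Sox2 -DOX (10.3-fold lower, adjusted p = 0.012), -3.30 ± 0.53 in Sox2xOct4 +DOX over rtTA +DOX (9.88-fold lower, adjusted p = 0.014) and -0.95 ± 0.53 in Oct4 +DOX over rtTA +DOX (adjusted p = 0.50). The first was between -4.0 and -2.73 with each array left out in turn and lost its call when replicate 1 of Sox2 +DOX (-2.73) or of Sox2 -DOX (-2.91) was left out. The second was between -3.73 and -2.88 and lost its call without Sox2xOct4 +DOX replicate 1 (-2.88) or either rtTA +DOX array (-2.98 and -3.63). The difference between the Sox2 and Sox2xOct4 responses of Mttp was -0.06 ± 0.75 (adjusted p = 0.99).

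Apob encodes the structural protein of the chylomicron. Its level was 4.2 and 4.44 in Sox2 +DOX, 1.85 and 3.75 in Sox2xOct4 +DOX, 5.08 and 5.30 in Oct4 +DOX, 5.32 and 5.16 in rtTA +DOX, and 5.80 and 5.22 in Sox2 -DOX. Both groups with induced Sox2 lay below all other arrays, and Sox2xOct4 +DOX replicate 1 lay lowest. Apob fell by 2.45 ± 0.55 in Sox2xOct4 +DOX over rtTA +DOX (adjusted p = 0.040). That call held in 1 of the 10 fits with an array left out, the fit without Sox2xOct4 +DOX replicate 2 (-3.39), and the change was -1.50 without Sox2xOct4 +DOX replicate 1. In Sox2 +DOX over Sox2 -DOX its change was -1.19 ± 0.55 (adjusted p = 0.20). Cideb, a lipid droplet protein that takes part in loading lipoproteins, had levels of -0.03 and 0.76 in Sox2 +DOX, -0.39 and 0.37 in Sox2xOct4 +DOX, 1.35 and 1.53 in Oct4 +DOX, 1.78 and 2.07 in rtTA +DOX, and 2.22 and 1.47 in Sox2 -DOX. These groups separated as those of Mttp did. Cideb fell in Sox2xOct4 +DOX over rtTA +DOX by 1.94 ± 0.41 (adjusted p = 0.034), and its change in Sox2 +DOX over Sox2 -DOX was -1.47 ± 0.41 (adjusted p = 0.066). The call was lost without Sox2xOct4 +DOX replicate 1 or either rtTA +DOX array, with changes between -2.32 and -1.56.

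Pla2g12b, a phospholipase A2 family member linked to lipoprotein secretion in mouse liver, had levels of 0.61 and 2.05 in Sox2 +DOX, 0.74 and 2.21 in Sox2xOct4 +DOX, 4.24 and 4.90 in Oct4 +DOX, 3.89 and 3.76 in rtTA +DOX, and 3.52 and 3.19 in Sox2 -DOX. The induced Sox2 arrays again lay below the rest. The change was -2.03 ± 0.59 in Sox2 +DOX over Sox2 -DOX (adjusted p = 0.073) and -2.35 ± 0.59 in Sox2xOct4 +DOX over rtTA +DOX (adjusted p = 0.053). It was called only across slides, in Sox2 +DOX over rtTA +DOX (-2.50 ± 0.59, adjusted p = 0.039), in 3 of the 10 fits with an array left out. Apobec1, which edits the Apob message to give the short intestinal form, and Sar1b, a GTPase of the vesicles that carry chylomicrons, were called in no comparison. Their changes were -0.71 and -0.53 in the Sox2 response and -0.87 and -1.03 in the Sox2xOct4 response.

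**Figure D4:**
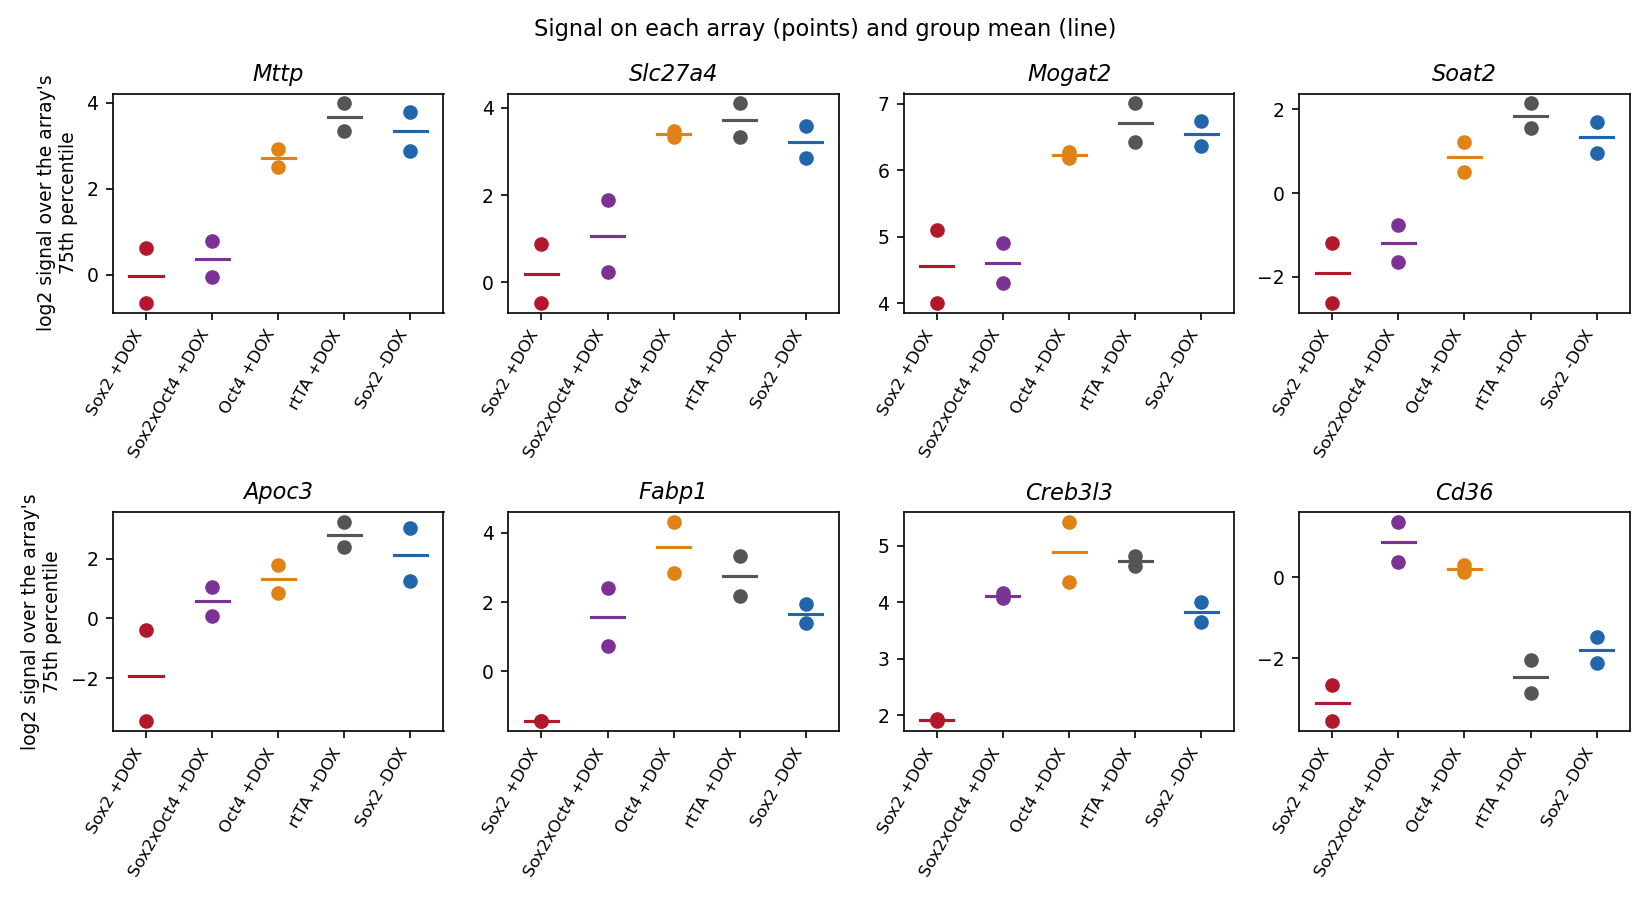
Log2 signal of 8 genes relative to the 75th percentile of each array, with each array as a point and the group mean as a line, groups from left to right and an axis of its own for each gene. In Mttp, Slc27a4, Mogat2 and Soat2 both groups with induced Sox2 lie below the other groups, while Cd36 is high in both groups with the Oct4 transgene.

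Of the 5 apolipoproteins carried on chylomicrons and other particles, 1 fell in Sox2 +DOX over Sox2 -DOX (20%, against 4.8% of all genes). In Sox2xOct4 +DOX over rtTA +DOX 0 were called (3.15% of all genes called lower and 3.19% higher). Across slides, in Sox2 +DOX over rtTA +DOX, 1 fell (20%, against 5.14%). Apoc3, an inhibitor of lipoprotein lipase (probe at chr9:45984265-45984324, build NCBI36/mm8, minus strand), had levels of -3.46 and -0.40 in Sox2 +DOX, 0.08 and 1.07 in Sox2xOct4 +DOX, 0.84 and 1.80 in Oct4 +DOX, 2.40 and 3.24 in rtTA +DOX, and 3.04 and 1.25 in Sox2 -DOX. Both Sox2 +DOX arrays lay below all others. It fell by 4.07 ± 0.99 in Sox2 +DOX over Sox2 -DOX (16.8-fold lower, adjusted p = 0.044), and had a change of -2.25 ± 0.99 in Sox2xOct4 +DOX over rtTA +DOX (adjusted p = 0.21). With an array left out the Sox2 change was between -5.60 and -2.54 (the smaller fall being that without Sox2 +DOX replicate 1), and it was called in 3 of 10 such fits. Across slides it fell by 4.75 ± 0.99 in Sox2 +DOX over rtTA +DOX (adjusted p = 0.026), and by 3.22 without Sox2 +DOX replicate 1, where it was not called.

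Apoa1 and Apoa4 lie beside Apoc3 on chromosome 9, with probes from 45980833 to 45980892 and from 45992573 to 45993316 in build NCBI36/mm8. Apoa1, the main protein of high-density lipoprotein, spread widely between replicates, at 0.97 and 4.05 in Sox2 +DOX and 3.11 and 6.39 in Sox2xOct4 +DOX, against 6.71 and 7.09 in rtTA +DOX and 6.71 and 5.83 in Sox2 -DOX. Its change of -3.76 ± 1.17 in Sox2 +DOX over Sox2 -DOX was not called (adjusted p = 0.088), and neither was that of -2.15 ± 1.17 in Sox2xOct4 +DOX over rtTA +DOX (adjusted p = 0.31). Apoa4, an intestinal apolipoprotein that responds to fat, had changes of -1.23 ± 1.07 and -0.83 ± 1.07. Apoc2, the activator of lipoprotein lipase, had changes of -2.07 ± 0.69 (adjusted p = 0.10) and -1.16 ± 0.69 (adjusted p = 0.35). Apoe, a receptor ligand that macrophages also make, had 0.58 ± 0.58 and 1.05 ± 0.58. All 5 were lower on replicate 1 than on replicate 2 in Sox2 +DOX, Sox2xOct4 +DOX, Oct4 +DOX and rtTA +DOX. Of 10 hepatocyte markers 7 were tested, and Fgg was well above background in no group. In Sox2 +DOX over Sox2 -DOX 2 rose, Ahsg and Ttr (28.6%, against 3.03% of all genes). In Sox2xOct4 +DOX over rtTA +DOX 2 rose, Ahsg and Alb (28.6%, against 3.19%). The summed signal of the tested markers was 1.24 to 1.38 in Sox2 +DOX and 1.14 to 1.56 in Sox2 -DOX. It was 0.634 to 12.4 in Sox2xOct4 +DOX and 0.434 to 0.941 in rtTA +DOX. The part of these markers in the apolipoprotein values was not tested.

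Among the genes that take up, bind and activate fatty acids, Cd36 alone was called higher in a comparison. Cd36 is a fatty acid receptor that enterocytes share with endothelium, macrophages and adipocytes (probe at chr5:17294606-17294665, build NCBI36/mm8, minus strand). Its level was -3.55 and -2.66 in Sox2 +DOX, 0.37 and 1.37 in Sox2xOct4 +DOX, 0.13 and 0.30 in Oct4 +DOX, -2.86 and -2.05 in rtTA +DOX, and -2.10 and -1.47 in Sox2 -DOX. The 4 arrays with the Oct4 transgene lay above the other 6 without overlap, and both Sox2 +DOX arrays lay below both Sox2 -DOX arrays. Cd36 rose by 3.32 ± 0.48 in Sox2xOct4 +DOX over rtTA +DOX (adjusted p = 0.010) and by 2.67 ± 0.48 in Oct4 +DOX over rtTA +DOX (6.37-fold, adjusted p = 0.047), which share the rtTA +DOX arrays. With Sox2 alone, over Sox2 -DOX, its change was -1.32 ± 0.48 (adjusted p = 0.13).

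A second Cd36 probe gave 3.09, 2.39 and -1.33 for the same comparisons. The rise with both transgenes was between 2.83 and 3.82 with an array left out and lost its call without rtTA +DOX replicate 1 (2.92, adjusted p = 0.090). The rise with Oct4 alone lay between 2.26 and 3.08 and was called in 4 of 10 such fits, those without either Sox2 +DOX array or either Sox2xOct4 +DOX array. The Sox2 response of Cd36 minus its Sox2xOct4 response was -4.65 ± 0.68 (adjusted p = 0.054). This difference was called under quantile normalization (adjusted p = 0.043), without Sox2xOct4 +DOX replicate 1 (adjusted p = 0.046) and with the replicate number as a block (adjusted p = 0.020). No other of the 33 genes was called for a difference between the responses under any setting tried (0.168% of all genes called over all arrays, where 3 of the 33 had an unadjusted p under 0.05). Of the 12 macrophage markers 0 were called in Sox2xOct4 +DOX over rtTA +DOX (6.34% of all genes called) or Oct4 +DOX over rtTA +DOX (1.01%). Their summed signals were 56.3 to 117 in Sox2xOct4 +DOX, 80.0 to 96.8 in Oct4 +DOX and 58.7 to 88.9 in rtTA +DOX. Of 12 adipocyte markers, 1, Pparg, fell in Sox2xOct4 +DOX over rtTA +DOX (8.33%, against 3.15% of all genes). In Oct4 +DOX over rtTA +DOX 0 of these 12 were called (1.01% of all genes). Their sums were 14.6 to 80.7 in Sox2xOct4 +DOX, 56.8 to 62.8 in Oct4 +DOX and 38.5 to 59.1 in rtTA +DOX.

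Slc27a4, a fatty acid transport protein with acyl-CoA synthetase activity (probe at chr2:29637604-29637663, build NCBI36/mm8, plus strand), fell with Sox2 both alone and with Oct4. Its level was -0.47 and 0.87 in Sox2 +DOX, 0.24 and 1.88 in Sox2xOct4 +DOX, 3.32 and 3.48 in Oct4 +DOX, 4.10 and 3.33 in rtTA +DOX, and 3.59 and 2.85 in Sox2 -DOX. The 4 arrays with induced Sox2 lay below the other 6. The changes were -3.02 ± 0.63 (8.13-fold lower, adjusted p = 0.028) in Sox2 +DOX over Sox2 -DOX and -2.65 ± 0.63 (6.30-fold lower, adjusted p = 0.046) in Sox2xOct4 +DOX over rtTA +DOX. With an array left out they lay between -3.69 and -2.35 and between -3.47 and -1.84, and were called in 7 and 3 of 10 fits. The lowest sizes were those without replicate 1 of the induced group.

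Fabp1, the liver type of fatty acid binding protein, fell with Sox2 alone (probe at chr6:71134491-71134550, build NCBI36/mm8, plus strand). Its level was -1.44 on both Sox2 +DOX arrays, 2.39 and 0.73 in Sox2xOct4 +DOX, 2.85 and 4.31 in Oct4 +DOX, 2.16 and 3.32 in rtTA +DOX, and 1.94 and 1.38 in Sox2 -DOX. Only the Sox2 +DOX arrays stood apart, and they gave nearly the same value. The change was -3.1 ± 0.67 in Sox2 +DOX over Sox2 -DOX (8.59-fold lower, adjusted p = 0.032), and -1.18 ± 0.67 in Sox2xOct4 +DOX over rtTA +DOX (adjusted p = 0.33), where the arrays overlapped. The Sox2 change was between -3.38 and -2.83 with an array left out, and lost its call without any of the 4 TetON-Sox2 arrays. The difference between the responses was -1.93 ± 0.95 and was not called (adjusted p = 0.59). Fabp1 is the gene shown above with 3 TTTATNG matches before its start site.

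Acsl5, a long-chain acyl-CoA synthetase, had levels of 4.17 and 4.33 in Sox2 +DOX, 3.78 and 3.77 in Sox2xOct4 +DOX, 4.94 and 4.95 in Oct4 +DOX, 5.05 and 5.31 in rtTA +DOX, and 5.16 and 4.76 in Sox2 -DOX. Replicates lay close together and the induced Sox2 groups were lowest. It fell by 1.40 ± 0.27 in Sox2xOct4 +DOX over rtTA +DOX (adjusted p = 0.024), with a call lost without any array of these groups and changes of -1.54 to -1.27, and had -0.71 ± 0.27 in Sox2 +DOX over Sox2 -DOX (adjusted p = 0.14). Acsl3, another such synthetase, was higher on both Sox2 +DOX arrays (1.53 and 1.56) than on both Sox2 -DOX arrays (0.60 and 0.61), a change of 0.94 ± 0.28 that was not called (adjusted p = 0.074). Slc27a2, a fatty acid transport protein, had 0.13 in the Sox2 response, 0.97 in the Sox2xOct4 response and -1.42 with Oct4 alone (adjusted p = 0.86, 0.18 and 0.16). Fabp2, the intestinal binding protein, gave different sizes on its 2 probes, and opposite signs in the Sox2xOct4 response. The brighter had -1.38 and 0.34 in the Sox2 and Sox2xOct4 responses, and the other -2.74 and -0.89.

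In glyceride synthesis, 2 of the 6 tested genes, Mogat2 and Lpin2, fell in Sox2 +DOX over Sox2 -DOX (33.3%, against 4.8% of all genes). In Sox2xOct4 +DOX over rtTA +DOX 3 fell, Mogat2, Dgat1 and Dgat2 (50%, against 3.15%). Mogat2 joins a fatty acid to monoacylglycerol, the first step of triglyceride resynthesis in the gut. Its level was 4.01 and 5.10 in Sox2 +DOX, 4.30 and 4.91 in Sox2xOct4 +DOX, 6.18 and 6.28 in Oct4 +DOX, 6.43 and 7.01 in rtTA +DOX, and 6.74 and 6.36 in Sox2 -DOX. The groups with induced Sox2 overlapped each other and no other group. Mogat2 fell by 1.99 ± 0.42 (3.98-fold, adjusted p = 0.030) in Sox2 +DOX over Sox2 -DOX and by 2.11 ± 0.42 (4.32-fold, adjusted p = 0.028) in Sox2xOct4 +DOX over rtTA +DOX, with a difference between the responses of 0.12 ± 0.60. The first lay between -2.54 and -1.45 and was not called when Sox2 +DOX replicate 1 or either Sox2 -DOX array was left out. The second lay between -2.41 and -1.81 and was not called without Sox2xOct4 +DOX replicate 1 or either rtTA +DOX array.

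Dgat1 and Dgat2 are unrelated enzymes that both make triglyceride from diacylglycerol. Dgat1 stood at 1.69 and 3.16 in Sox2 +DOX, 2.27 and 2.70 in Sox2xOct4 +DOX, 3.92 and 4.25 in Oct4 +DOX, 4.69 and 4.43 in rtTA +DOX, and 4.43 and 3.96 in Sox2 -DOX. Dgat2 stood at 3.81 and 4.29 in Sox2 +DOX, 3.19 and 3.90 in Sox2xOct4 +DOX, 4.25 and 4.84 in Oct4 +DOX, 5.27 and 5.37 in rtTA +DOX, and 5.15 and 4.96 in Sox2 -DOX. In both genes the induced Sox2 arrays were below the controls, and for Dgat2 they overlapped the Oct4 +DOX arrays. In Sox2xOct4 +DOX over rtTA +DOX, Dgat1 fell by 2.07 ± 0.47 (adjusted p = 0.042) and Dgat2 by 1.78 ± 0.35 (adjusted p = 0.028). These calls held in 2 and 5 of the 10 fits with an array left out, with changes of -2.29 to -1.86 for Dgat1 and -2.13 to -1.42 for Dgat2. With Sox2 alone, over Sox2 -DOX, the changes were -1.77 ± 0.47 (adjusted p = 0.058) and -1.01 ± 0.35 (adjusted p = 0.12). Across slides Dgat1 fell by 2.13 ± 0.47 in Sox2 +DOX over rtTA +DOX (adjusted p = 0.033), and by 1.40 without Sox2 +DOX replicate 1, where it was not called.

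Lpin2, a phosphatidate phosphatase, had levels of 1.25 and 2.49 in Sox2 +DOX, 2.64 and 3.1 in Sox2xOct4 +DOX, 4.08 and 4.32 in Oct4 +DOX, 4.57 and 3.95 in rtTA +DOX, and 4.56 and 4.07 in Sox2 -DOX. On this probe the Sox2 +DOX arrays were lowest and the Sox2xOct4 +DOX arrays lay between them and the rest. On its other probes these groups overlapped, with -2.74 and -3.32 in the Sox2 response and -2.32 and -1.63 in the Sox2xOct4 response. The probe with -3.32 was not well above background on Sox2 +DOX replicate 1 (-7.48), so the size of that change is uncertain. By the first probe Lpin2 fell by 2.44 ± 0.45 in Sox2 +DOX over Sox2 -DOX (adjusted p = 0.019). Its change was -1.39 ± 0.45 in Sox2xOct4 +DOX over rtTA +DOX (adjusted p = 0.11). The Sox2 change was -1.82 without Sox2 +DOX replicate 1, and was not called there or without either Sox2 -DOX array. Agpat2, which makes phosphatidic acid, had -1.03 and -1.84 in the Sox2 and the Sox2xOct4 response (adjusted p = 0.25 and 0.080). Plin2, a lipid droplet coat protein, had -0.61 and 0.46 (adjusted p = 0.29 and 0.45). Lpcat3, named Mboat5 in the files, remodels phospholipids. It had 0.15 ± 0.35 and -1.40 ± 0.35 (adjusted p = 0.81 and 0.053).

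Of the genes that handle cholesterol, Soat2 fell in both comparisons and Npc1l1 in that of Sox2 alone. Soat2 esterifies cholesterol for chylomicrons (probe at chr15:101989129-101990046, build NCBI36/mm8, plus strand, a span longer than the probe). Its level was -2.63 and -1.19 in Sox2 +DOX, -1.66 and -0.75 in Sox2xOct4 +DOX, 0.52 and 1.21 in Oct4 +DOX, 2.14 and 1.56 in rtTA +DOX, and 1.71 and 0.95 in Sox2 -DOX. The 4 induced Sox2 arrays lay below the rest. The change was -3.24 ± 0.56 (9.46-fold lower, adjusted p = 0.015) in Sox2 +DOX over Sox2 -DOX and -3.05 ± 0.56 (8.31-fold lower, adjusted p = 0.021) in Sox2xOct4 +DOX over rtTA +DOX. The first was -2.52 when Sox2 +DOX replicate 1 was left out, -2.86 and -3.62 when Sox2 -DOX replicate 1 or 2 was, and was called in none of these fits. The second was -2.60 without Sox2xOct4 +DOX replicate 1, -2.76 and -3.35 without rtTA +DOX replicate 1 and 2, and was likewise not called. With Oct4 alone the change was -0.98 ± 0.56 (adjusted p = 0.51).

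Npc1l1, the brush border cholesterol transporter, had levels of 1.02 and 3.42 in Sox2 +DOX, 2.43 and 3.60 in Sox2xOct4 +DOX, 4.66 and 5.31 in Oct4 +DOX, 5.46 and 5.22 in rtTA +DOX, and 5.27 and 5.17 in Sox2 -DOX. The induced Sox2 groups lay below the others, with a wide gap between the replicates. It fell by 3.0 ± 0.72 in Sox2 +DOX over Sox2 -DOX (adjusted p = 0.043), a call kept in 3 of 10 fits with an array left out, and by 1.80 without Sox2 +DOX replicate 1. In Sox2xOct4 +DOX over rtTA +DOX the change was -2.32 ± 0.72 (adjusted p = 0.097). Its upstream run, shown above, holds an Hnf1 match.

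Abcg5 and Abcg8 form the pair of half-transporters that returns sterols to the lumen, and their start sites lie 109 bases apart in the run shown first above. Abcg5 had levels of 2.47 and 4.53 in Sox2 +DOX, 3.99 and 4.89 in Sox2xOct4 +DOX, 5.44 and 5.54 in Oct4 +DOX, 6.18 and 6.24 in rtTA +DOX, and 6.02 and 5.62 in Sox2 -DOX. Abcg8 had -4.27 and -2.02 in Sox2 +DOX, -2.12 and -1.48 in Sox2xOct4 +DOX, -1.03 and -0.54 in Oct4 +DOX, 0.24 and -0.41 in rtTA +DOX, and -0.33 and -0.80 in Sox2 -DOX. In both, the induced Sox2 arrays were lowest and, on these probes, Oct4 +DOX lay below rtTA +DOX. On a second, dimmer Abcg8 probe the induced Sox2 arrays were lowest too, but Oct4 +DOX (-1.38 and -0.54) overlapped rtTA +DOX (0.39 and -0.82). By the probe standing for each gene, the changes of Abcg5 and Abcg8 were -2.32 ± 0.61 and -2.58 ± 0.66 in Sox2 +DOX over Sox2 -DOX (adjusted p = 0.056 and 0.053). In Sox2xOct4 +DOX over rtTA +DOX they were -1.77 ± 0.61 and -1.71 ± 0.66 (adjusted p = 0.13 and 0.16). Both were called only across slides, in Sox2 +DOX over rtTA +DOX (-2.71 and -3.06, adjusted p = 0.034 and 0.030), and without Sox2 +DOX replicate 1 these changes were -1.68 and -1.93 and not called. Scarb1, a high-density lipoprotein receptor, was higher on both Sox2 +DOX arrays than on both Sox2 -DOX arrays, and on both Sox2xOct4 +DOX arrays than on both rtTA +DOX arrays, but its changes of 1.31 ± 0.50 and 1.19 ± 0.50 were not called (adjusted p = 0.14 and 0.19). Abca1, which exports cholesterol to apolipoprotein A1, had -0.27 and 0.45 (adjusted p = 0.72 and 0.58).

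Creb3l3, a membrane-bound transcription factor of lipoprotein genes in liver and intestine, fell with Sox2 alone and was not called with both transgenes. Its level was 1.89 and 1.93 in Sox2 +DOX, 4.15 and 4.07 in Sox2xOct4 +DOX, 4.36 and 5.42 in Oct4 +DOX, 4.82 and 4.64 in rtTA +DOX, and 4.0 and 3.65 in Sox2 -DOX. Sox2 +DOX stood alone, with replicates that were close. It fell by 1.92 ± 0.37 in Sox2 +DOX over Sox2 -DOX (3.79-fold, adjusted p = 0.022), and its change was -0.62 ± 0.37 in Sox2xOct4 +DOX over rtTA +DOX (adjusted p = 0.35). The difference between the responses was -1.30 ± 0.52 and was not called (adjusted p = 0.48). Between the controls, rtTA +DOX over Sox2 -DOX, which crosses slides, its change was 0.90 ± 0.37 (limma, unadjusted p = 0.039, adjusted p = 0.85). When Sox2 +DOX replicate 1, Sox2 -DOX replicate 1 or its replicate 2 was left out the Sox2 change was -1.90, -1.75 and -2.10 and was not called. Among the lipases, Mgll (monoglyceride lipase) had -0.65 and 0.13 in the Sox2 and the Sox2xOct4 response, and Lipa (lysosomal acid lipase, named Lip1 in the files) had -0.92 ± 0.38 and -1.53 ± 0.38 (adjusted p = 0.17 and 0.055). Clps, the cofactor of pancreatic lipase, spread from 0.12 to 3.34 within Sox2xOct4 +DOX and from 2.62 to 4.13 within rtTA +DOX, and was not called. Of 13 pancreatic acinar markers 7 were tested, and Pnlip, Cela2a and Cela3b were not well above background on any array. Rnase1 rose by 3.66 in Sox2 +DOX over Sox2 -DOX (adjusted p = 0.0085) and by 2.41 in Sox2xOct4 +DOX over rtTA +DOX (adjusted p = 0.037). No other acinar marker was called in these, so that 14.3% of those tested rose in each, against 3.03% and 3.19% of all genes. The summed signal of the tested markers was 6.64 to 6.99 in Sox2 +DOX and 1.32 to 1.4 in Sox2 -DOX, and 3.98 to 4.57 in Sox2xOct4 +DOX and 2.16 to 4.5 in rtTA +DOX. Their part in the values of Clps was not tested.

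Outside these 33, a wider list held 78 lipid genes, of which 71 were tested. In Sox2 +DOX over Sox2 -DOX 8 were lower (11.3%, against 4.8% of all genes) and 3 higher (4.23%, against 3.03%), with a median of -0.23. In Sox2xOct4 +DOX over rtTA +DOX 6 were lower (8.45%, against 3.15%) and 2 higher (2.82%, against 3.19%), with a median of -0.17. The shares called higher there lay near those of all genes. In Oct4 +DOX over rtTA +DOX 1, Lpin1, was higher (1.41%, against 0.724%), with a median of 0.04. Soat1, the widely expressed relative of Soat2, rose where Soat2 fell. Its level was 3.28 and 3.09 in Sox2 +DOX and 3.12 and 2.94 in Sox2xOct4 +DOX, against 0.73 and 0.90 in rtTA +DOX and 0.61 and 0.52 in Sox2 -DOX, with 2.24 and 3.21 in Oct4 +DOX. The changes were 2.62 ± 0.35 in Sox2 +DOX over Sox2 -DOX (adjusted p = 0.0066) and 2.22 ± 0.35 in Sox2xOct4 +DOX over rtTA +DOX (adjusted p = 0.013). Fabp5, the epidermal relative of Fabp1, rose at least 3.02-fold with Sox2 alone (adjusted p = 0.015), and with both transgenes it rose at least 2.07-fold (adjusted p = 0.038). These are bounds against the lowest signal well above background, since it was below background in rtTA +DOX and Sox2 -DOX. Abcg1, a sterol exporter of macrophages, rose by 1.51 in Sox2 +DOX over Sox2 -DOX (adjusted p = 0.049). Of the 12 macrophage markers 1, Cd68, rose there by 2.32 (adjusted p = 0.014), which is 8.33%, against 3.03% of all genes. The summed signals of the 12 were 76.6 to 85.2 in Sox2 +DOX and 89.9 to 101 in Sox2 -DOX. Their part in the Abcg1 value was not tested.

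The genes of the wider list that fell in Sox2 +DOX over Sox2 -DOX with the smallest p were Lipe (-2.67), Gpat3 (-2.55), Lpl (-3.69), Acsl6 (at least 2.03-fold lower) and Plin3 (-1.47). Lipe and Lpl, a lipase of fat stores and the lipase of capillaries, are also adipocyte markers. Of the 12 adipocyte markers 3 fell here (25%, against 4.8% of all genes). Their summed signals were 17.1 to 28.4 in Sox2 +DOX and 54.0 to 62.5 in Sox2 -DOX, and the part of adipocytes was not tested. Among those that fell in Sox2xOct4 +DOX over rtTA +DOX were Gpat3 (-2.38), Mogat1 (-3.88), Tm6sf2 (-2.40) and Lpin3 (-1.66). Gpat3, which makes lysophosphatidic acid, fell in both, and so did Mogat1 (-3.66 in Sox2 +DOX over Sox2 -DOX, adjusted p = 0.032). Among 31 regulators of these genes, all tested, 5 fell in Sox2 +DOX over Sox2 -DOX (16.1%, against 4.8% of all genes, median -0.89). In Sox2xOct4 +DOX over rtTA +DOX 2 fell (6.45%, against 3.15%, median -0.85). The 5 were Rxra (-1.66) and Nr1i2 (-1.52), which are nuclear receptors, and Klf4 (-2.56), Prdm1 (-1.71) and Isx (-1.88), which are other transcription factors of the gut epithelium. The 2 were Klf4 (-2.46) and Pparg (-1.39), a nuclear receptor of lipid storage.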

How the data were processed

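The deposited scanner files hold spot intensity values that the authors' Agilent software had background-subtracted and detrended, per the file headers, which give Feature Extraction 9.5.3.1, 10.7.1.1 and 10.7.3.1 for slides 1, 2 and 3, where the submitters' processing notes name 9.1. The authors' deposited intensity table covers 4 arrays and was used only as an alternative. From the files, log2 of the processed signal minus each array's 75th percentile was taken, and the probe with the highest mean among those well above background throughout 1 or more groups stood for its gene (28760 probes, 19055 genes). Names came from the files or RefSeq (80.1% of probes). limma 3.58.1 in R 4.3.3 fitted a mean for each group, all 10 arrays together (5 residual degrees of freedom, median standard error 0.39), with Benjamini-Hochberg adjustment over all genes. Python 3.11.15 was used for tables. Per array, 63.5 to 70.5% of probes were well above background and none was saturated, and 2 arrays per group limit the precision. Coordinates of probes are those of the files (NCBI36/mm8), and whether a probe lies in an exon or a UTR was not analysed here. The gene list, the roles and the other lists were chosen with earlier results of these data known. Per-array values are given for genes called in at least 1 comparison. Of genes outside the list, those called in either within-slide comparison are named, up to 5 per direction and list, except 1 that is not reported here. Alternatives were other normalizations, probe rules, blocks and arrays left out. The script was tested on simulated data.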

Additional observations from a re-analysis of the deposited data

How the results depend on the processing

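The median change of the 33 genes shifted by less than the spread between replicates under every alternative that kept all arrays. With each array left out it ranged from -1.94 to -1.03 in Sox2 +DOX over Sox2 -DOX, -2.03 to -1.16 in Sox2xOct4 +DOX over rtTA +DOX, -0.37 to -0.12 in Oct4 +DOX over rtTA +DOX, -2.13 to -1.35 in Sox2 +DOX over rtTA +DOX and 0.13 to 0.46 in rtTA +DOX over Sox2 -DOX, and from -0.90 to 0.48 for the difference between the Sox2 and Sox2xOct4 responses, where the median was above 0 without Sox2 +DOX replicate 1 (0.48) and without Sox2xOct4 +DOX replicate 2 (0.05). The counts of called genes ranged, with each array left out, from 0 to 13, 0 to 13, 0 to 1, 1 to 17 and 0 to 0 in the same comparisons, and from 0 to 1 for the difference. For Sox2 +DOX over Sox2 -DOX the count of 9 became 15 with a variance trend, 2 in a fit of only the groups compared and 2 in the authors' deposited table, where 693 genes were called in all, against 1493. For Sox2xOct4 +DOX over rtTA +DOX the count of 10 became 6 without the filter on dim probes and 3 in a fit of only the groups compared, and for Sox2 +DOX over rtTA +DOX the count of 13 became 5 in such a fit. The single call in Oct4 +DOX over rtTA +DOX, Cd36, was lost (0 called) with normexp and quantile normalization, without the filter on dim probes, with the mean of a gene's probes and in a fit of only the groups compared. The difference between responses had 1 call, Cd36, under quantile normalization and with the replicate block. A fit of fewer groups has fewer degrees of freedom, and the cause of the other moves was not tested. The replicate numbers were not taken to pair the samples, since the labels name nothing shared and the deviations of same-numbered arrays correlated between -0.13 and 0.27 over pairs of groups, above 0.1 in 5 of 10. The replicate block gave 11 and 10 calls in the within-slide comparisons, with Slc27a4 no longer called in Sox2xOct4 +DOX over rtTA +DOX (adjusted p = 0.053), where 9 of the 10 calls were kept, and 15 in Sox2 +DOX over rtTA +DOX. With these groups and slides a slide block is the same fit as the main one, so its unchanged counts within slides test nothing. Quantile normalization moved the median of all genes in Sox2 +DOX over Sox2 -DOX to 0.00464, against -0.10, and the median of the 33 genes to -1.20. No called change reversed under any alternative run. The depth limit is the signal over background, which all 33 genes passed.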
